A study of Mus with 6 samples.

Results

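The cluster of miR-191 and miR-425 was followed through 6 small RNA libraries of mouse adipocytes, taking every deposited row whose name begins with mmu-miR-191- or mmu-miR-425-. The rule finds 4 mature miRNAs in each library, among 929 known names that all 6 libraries list. They are mmu-miR-191-5p, mmu-miR-191-3p, mmu-miR-425-5p and mmu-miR-425-3p, written below without the species prefix. The study holds 3 libraries labelled as chronic intermittent hypoxia (CIH), in which oxygen drops again and again as it does in sleep apnoea, and 3 control libraries. All are given as wild type on a C57BL/6 background, and the labels give no age, sex, hypoxia schedule, source depot or number of animals. Whether libraries came from separate animals or cultures is also not given, so each p-value rests on differences among libraries that could be technical alone.

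A miRNA hairpin is cut into a pair of strands, the 5p and the 3p arm, of which one is usually loaded into Argonaute while the other is degraded. miR-191 and miR-425 lie on one primary transcript, so that they are transcribed together. Because both are found in most tissues at steady levels, miR-191-5p and miR-425-5p are common members of reference panels for quantitative PCR, where a target miRNA is expressed relative to them. In human breast cancer cells miR-191 has been reported to be raised by hypoxia. On GRCm38 the Mir191 hairpin lies on chromosome 9 from 108568319 to 108568392 and Mir425 from 108568777 to 108568861, 384 bases further on, both inside the span of the protein-coding gene Dalrd3 (108567484 to 108572773).

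Within the libraries numbered 1 and 2, miR-191-5p stayed as level as almost any miRNA measured, while in the libraries numbered 3 it was low, most of all in the control. By library totals miR-425-5p was highest in CIH library 1 and low in both libraries numbered 3. With miR-148a-3p left out of the totals, only CIH library 3 stayed below the libraries numbered 1 and 2. Levels are given in CPM, the reads of a miRNA in every 1000000 counted in its library. miR-191-5p stood at 3079.6, 2795 and 1568 CPM in CIH libraries 1, 2 and 3, and at 3261, 2956 and 497 CPM in control libraries 1, 2 and 3. The 4 libraries numbered 1 and 2 lie within a 1.17-fold range, and all 6 within a 6.56-fold range. It was between the 25th and 31st most abundant name in the libraries numbered 1 and 2, and 46th in CIH library 3 and 55th in control library 3.

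miR-425-5p, the second most abundant product of the cluster, stood at 639.8, 494 and 234 CPM in CIH libraries 1, 2 and 3, against 382, 503 and 238 CPM in control libraries 1, 2 and 3. CIH library 1 is the highest and the pair numbered 3 the lowest, with nearly equal values in its CIH and control library. The range over all 6 libraries is 2.74-fold, less than that of miR-191-5p, but within the libraries numbered 1 and 2 it is 1.67-fold. miR-425-3p, its partner arm, stood at 31.5, 23.5 and 14.03 CPM in CIH, against 34.2, 37.1 and 9.32 CPM in control. miR-191-3p was a minor product, with 67, 64 and 54 counts in CIH, against 48, 38 and 15 counts in control, or 9.13, 6.37 and 4.79 CPM against 7.63, 3.91 and 1.82 CPM. Both 3p arms were lowest in control library 3. With so few reads for miR-191-3p, its 95% exact interval in that library runs from 1.02 to 2.995 CPM, counting error alone.

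**Figure D1:**
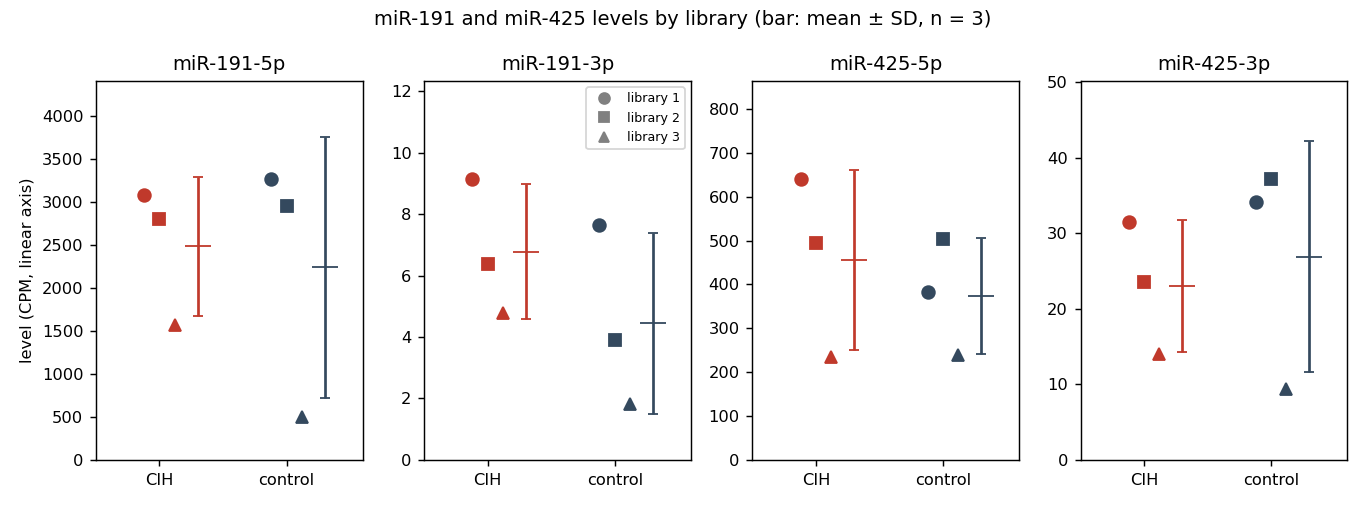
Level of each of the 4 mature miRNAs in CPM (vertical axes, linear, one scale per panel) in the 3 CIH and 3 control libraries, with point shapes for the library number and a bar for the mean ± SD (n = 3 each). miR-191-5p sits between 2795 and 3261 CPM in the libraries numbered 1 and 2 and at 1568 and 497 CPM in CIH and control library 3.

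The libraries numbered 3 stand apart in composition, which bears on each level above. miR-148a-3p alone took 24.9% of CIH library 3 and 49.4% of control library 3, against 2.81% to 2.998% of the other CIH and 4.69% to 5.53% of the other control libraries, and these 2 libraries list 1186 names where the other 4 list 1053. Total counts ran from 7336758 to 11264151 in CIH and from 6291101 to 9720485 in control, so that 3 counts equal 0.266 to 0.477 CPM. No single miRNA defines adipocytes. The 5 miRNAs listed as abundant in fat summed to 144820 to 309910 CPM in CIH libraries and 212940 to 589401 CPM in control. The 4 leukocyte markers, from cells in which miR-191 is also plentiful, summed to 0.266 to 3.27 CPM in CIH libraries and 0.363 to 4.29 CPM in control, with miR-142a-3p at 3 counts or fewer in every library. The 7 epithelial markers summed to 169.6, 126 and 18.6 CPM in CIH libraries 1, 2 and 3, against 409, 334 and 76.3 CPM in control libraries 1, 2 and 3. Their sum was lower in CIH in every pair, as were the sums for fat and erythroid markers by totals. The leukocyte sum was lower too, but at 2.09 against 2.16 CPM in pair 2, and in pair 3 both sums equal 3 counts. Single markers did not all follow their sum. In pair 3 miR-205-5p stood at 1.86 CPM in CIH against 67.8 CPM in control. There miR-200a-3p, miR-200b-3p, miR-200c-3p and miR-203-3p were higher in CIH. In pairs 1 and 2 the erythroid miR-486a-5p was higher in CIH. Of the epithelial markers, miR-205-5p fell by 1.44 and miR-203-3p fell by 1.24 on the log2 scale in the libraries numbered 1 and 2 (adjusted p = 0.000153 and 0.00751, edgeR). Another of them, miR-200b-3p, was higher in CIH in pair 2, at 15.7 against 13.8 CPM. For endothelial, erythroid, muscle and hepatocyte markers the sums were 73.1 to 104, 21.0 to 136, 11.6 to 38.7 and 2.09 to 5.59 CPM in CIH libraries and 33.8 to 137, 54.8 to 154, 12.6 to 111 and 2.16 to 4.12 CPM in control. Their part in the levels of the cluster was not tested, and in such bulk libraries fewer cells of a type and less RNA per cell cannot be told apart.

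With miR-148a-3p taken out of the totals, miR-191-5p in the pair numbered 3 stood at 2088 CPM in its CIH library and 981 CPM in its control library, against 2876 to 3175 CPM in the other CIH and 3101 to 3452 CPM in the other control libraries. Control library 3 thus stayed the lowest, by a smaller margin. On the same basis miR-425-5p in that pair stood at 311 CPM in its CIH library and 471 CPM in its control library, so that its 2 libraries, level by totals, no longer were. Removing this one miRNA moved the control value of miR-425-5p into the range of the other 4 libraries, 405 to 659.6 CPM, and left the CIH value below it.

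CIH and control did not separate for any of the 4 miRNAs when all 6 libraries were compared. miR-191-5p averaged 2481 ± 803 CPM over the CIH libraries and 2238 ± 1516 CPM over the control libraries (SD, n = 3 each). The log2 difference was 0.19 (SE 0.59, adjusted p = 0.988, edgeR quasi-likelihood test after TMM scaling). miR-425-5p averaged 456 ± 206 CPM over the CIH libraries and 375 ± 132 CPM over the control libraries, and its log2 difference was 0.17 (SE 0.49, adjusted p = 0.988). The 3p arms differed by 0.57 for miR-191-3p (SE 0.55, adjusted p = 0.934) and by -0.24 for miR-425-3p (SE 0.52, adjusted p = 0.988). Here edgeR called 0 of 456 miRNAs (0%) and so 0 of the 4, with 23 of the 456 at an unadjusted p under 0.05; neither DESeq2 (37 at that p) nor limma-voom (21) called any. The CPM ranges of CIH and control overlapped for all 4, where 51 of the 456 (11.2%) had ranges that did not. With standard errors of 0.49 to 0.59 on the log2 scale, a difference of that size was not detectable here. The difference of miR-191-5p was -0.18 without control library 3 and -0.00833 without CIH library 2. That of miR-425-3p was 0.04 without CIH library 3 and also without control library 2, and that of miR-425-5p was 0.000638 without CIH library 1 and 0.50 without CIH library 3.

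Among the 4 libraries numbered 1 and 2 the estimates were tighter. For miR-191-5p the log2 difference was 0.06 (SE 0.20, adjusted p = 0.890, edgeR), and -0.08 with library totals in place of TMM, a scaling that shifts the median of all miRNAs from -0.03 to -0.17. miR-425-5p had a log2 difference of 0.48 (SE 0.22), with an unadjusted p of 0.0367 and an adjusted p of 0.189, so it did not pass. The 3p arms gave 0.59 (SE 0.40, adjusted p = 0.444) for miR-191-3p and -0.25 (SE 0.31, adjusted p = 0.698) for miR-425-3p. None of the 4 was called, where 43 of 459 miRNAs (9.37%) were, 19 higher and 24 lower in CIH, or 7 higher and 27 lower by totals. That count was 23 without CIH library 1, 97 without CIH library 2, 14 without control library 1 and 9 without control library 2. Single libraries also moved miR-425-5p. Its log2 difference was 0.54 without CIH library 2 and 0.83 without control library 2. Without control library 1, the lowest of the 4, it was 0.23. Each of these fits leaves 1 library in a group, which is assumed to vary like the other group.

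Taken pair by pair, the 5p arms parted in pair 1 and, the other way, in pair 3. For miR-191-5p the CIH level was 0.944 times the control level in pair 1 (95% exact interval 0.927 to 0.962, counting error only), 0.946 times in pair 2 (0.930 to 0.961) and 3.16 times in pair 3 (3.05 to 3.27). Pair 3 was the one that departed most, and the intervals of pairs 1 and 2 overlap. For miR-425-5p the same ratio was 1.67 in pair 1 (1.59 to 1.76), 0.982 in pair 2 (0.944 to 1.02) and 0.980 in pair 3 (0.924 to 1.04), so that pair 1 alone had an interval that leaves out 1. The value of pair 3 depends on the scaling. On the log2 scale it is -0.03 by totals, -0.60 without miR-148a-3p in the totals, -0.83 after TMM and -0.96 when the libraries are scaled to 15 other reference miRNAs. For miR-191-5p these 4 scalings gave 1.66, 1.09, 0.85 and 0.73 in the same pair, all higher in CIH. The scarce miR-191-3p was higher in CIH in each pair under all 4 scalings. Its log2 differences ran from 0.22 to 0.32 in pair 1, 0.68 to 0.94 in pair 2 and 0.47 to 1.40 in pair 3. By totals the counting interval of pair 1 includes 1 (ratio 1.20, 0.814 to 1.77). That of pair 3, from 54 against 15 counts, runs from 1.47 to 5.04 by totals. Shifted to the lower estimates of the other scalings, it includes 1. Neither fit called this arm.

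**Figure D2:**
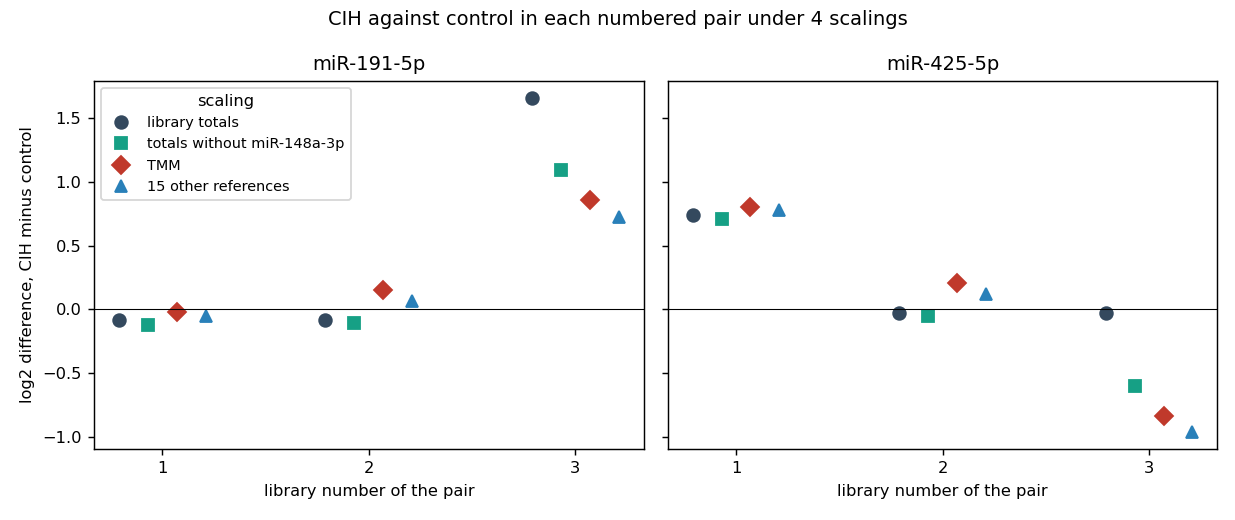
Log2 difference of CIH minus control (vertical axis) in each numbered pair of libraries (horizontal axis) for miR-191-5p and miR-425-5p, with a symbol for each of 4 scalings. In pair 3 miR-191-5p lies between 0.73 and 1.66 and miR-425-5p between -0.96 and -0.03, while in pairs 1 and 2 miR-191-5p lies between -0.12 and 0.15 under all 4.

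The CIH difference of the pair numbered 3 was set against that of the libraries numbered 1 and 2 as an interaction. That pair has 1 library a group, so the fit assumes that its libraries vary like those numbered 1 and 2, and a replicate of it was not measured. Within a group the libraries numbered 1 and 2 differed from each other far less than from the library numbered 3, with a chi-square per degree of freedom of 135 and 404 against 7381 to 13386. Under that assumption miR-425-5p had an interaction of -1.32 on the log2 scale (SE 0.38, adjusted p = 0.00846, edgeR after TMM), but of -0.39 by library totals (adjusted p = 0.514), so its call holds under TMM and not under totals. By totals the median over all miRNAs was 0.998 instead of 0.06. miR-191-5p had an interaction of 0.79 (SE 0.36, adjusted p = 0.0932), which by totals became 1.74 (adjusted p = 0.00336). The 3p arms lay near 0, at 0.00 for miR-191-3p and 0.03 for miR-425-3p (adjusted p = 0.999 and 0.978), and by totals at 0.95 and 0.97 (adjusted p = 0.433 and 0.220). The count of 1 in 4 stands beside 138 of 456 miRNAs (30.3%) called in this test (76 higher and 62 lower, or 137 and 21 of 158 by totals), so it does not set the cluster apart.

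The ratio of the 5p arms, which needs no scaling, shows directly how the 5p arms parted. There were 4.81, 5.66 and 6.71 reads of miR-191-5p for each read of miR-425-5p in CIH libraries 1, 2 and 3, against 8.53, 5.88 and 2.08 in control libraries 1, 2 and 3. The CIH libraries lie inside the range of the control libraries, which spread more widely. The mean log2 ratio was 2.50 ± 0.24 in CIH and 2.24 ± 1.05 in control (SD, n = 3 each), a difference of 0.27 (exact permutation p = 0.9, two-sided; adjusted p = 0.9 over 3 ratios). It was lower in CIH in pairs 1 and 2, by -0.83 and -0.06, and higher in pair 3, by 1.69. Without control library 3 the mean difference was -0.32.

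The 5p arm dominated in both hairpins, far more in miR-191 than in miR-425. miR-191-5p made up 99.70%, 99.77% and 99.70% of the miR-191 reads in CIH libraries 1, 2 and 3, against 99.77%, 99.87% and 99.64% in control libraries 1, 2 and 3. That equals 337, 439 and 327 reads of the 5p arm for each of the 3p arm in CIH and 427, 756 and 274 in control. The exact 95% intervals of the ratio are wide, from 166 to 489 in control library 3, where the 3p arm had 15 counts. The mean log2 ratio was 8.51 ± 0.23 in CIH and 8.80 ± 0.73 in control (SD, n = 3 each), a difference of -0.29 (exact permutation p = 0.7, two-sided; adjusted p = 0.9). That sign rested on control library 2, without which the difference was 0.09.

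For miR-425 the 5p arm held 95.3%, 95.5% and 94.3% of the reads in CIH libraries 1, 2 and 3, against 91.8%, 93.1% and 96.2% in control libraries 1, 2 and 3. The 5p to 3p ratio was 20.3, 21.0 and 16.7 in CIH and 11.2, 13.5 and 25.6 in control. In pairs 1 and 2 the CIH library had the higher ratio, with intervals that did not overlap (17.8 to 23.3 against 9.73 to 12.9, and 18.4 to 24.1 against 12.2 to 15.1, counting error only). In pair 3 the order was the other way round, 14.2 to 19.7 in CIH and 20.4 to 32.5 in control. The log2 differences were 0.86, 0.63 and -0.62 in pairs 1, 2 and 3, with a mean of 4.27 ± 0.18 in CIH and 3.97 ± 0.62 in control (SD, n = 3 each; exact permutation p = 0.5, two-sided, adjusted p = 0.9). With 3 libraries a group this test cannot give a p under 0.1.

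**Figure D3:**
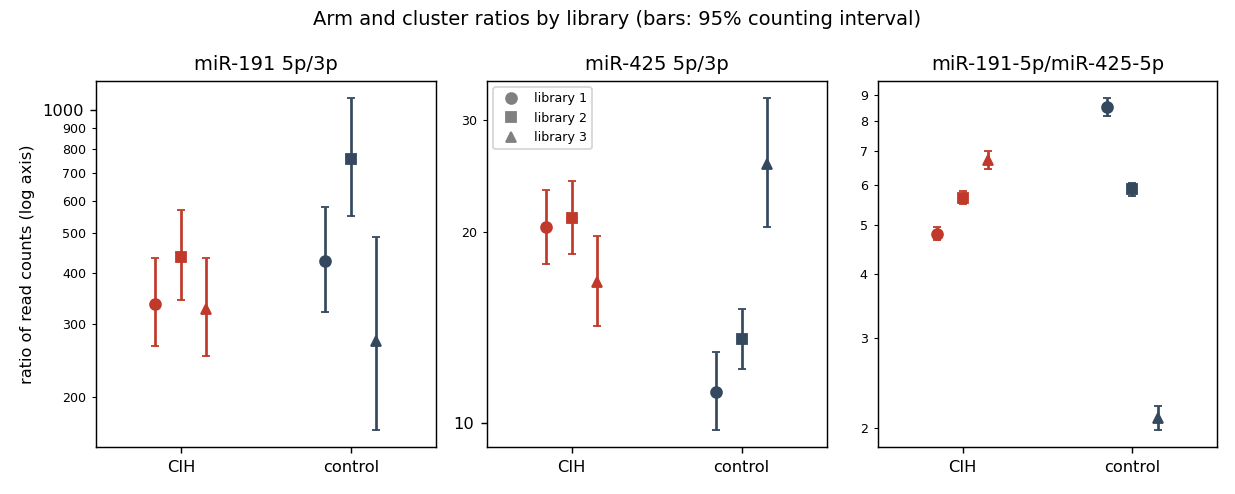
Ratio of read counts (log axes) of the 5p to the 3p arm of miR-191, of the 5p to the 3p arm of miR-425, and of miR-191-5p to miR-425-5p in the CIH and control libraries, with 95% exact counting intervals and point shapes for the library number. CIH libraries lie inside the range of control libraries in all 3 panels, and the miR-425 arm ratio is 20.3 and 21.0 in CIH libraries 1 and 2 against 11.2 and 13.5 in control libraries 1 and 2.

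How level a miRNA stays is the property asked of a reference, and it was described by the standard deviation (SD) of its log2 level over libraries. Over the libraries numbered 1 and 2 the SD of miR-191-5p was 0.09, the 14th lowest of 456 miRNAs, whose median was 0.37. Among the 47 miRNAs with a mean of at least 1000 CPM it had the 2nd lowest. After TMM scaling the SD was 0.07, the 5th lowest of 456. Over all 6 libraries its SD was 1.06, rank 332 of 456 and 33 of the 47, above the medians of 0.79 and 0.75. TMM lowered this to 0.77 (rank 261), leaving miR-148a-3p out of the totals to 0.68, and leaving out control library 3 to 0.43. The same miRNA therefore ranked near the top and below the middle depending on whether the pair numbered 3 was counted.

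For miR-425-5p the ranks with and without that pair differed less, by totals and after TMM. Its SD was 0.30 over the libraries numbered 1 and 2, rank 159 of 456, and 0.60 over all 6, rank 117. After TMM the values were 0.36 (rank 242) and 0.53 (rank 123). For miR-425-3p the SD was 0.28 (rank 132) over the libraries numbered 1 and 2 and 0.78 (rank 220) over 6. The scarce miR-191-3p had 0.48 (rank 311) and 0.74 (rank 197). Ranks are descriptions over miRNAs that share libraries and were not tested.

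**Figure D4:**
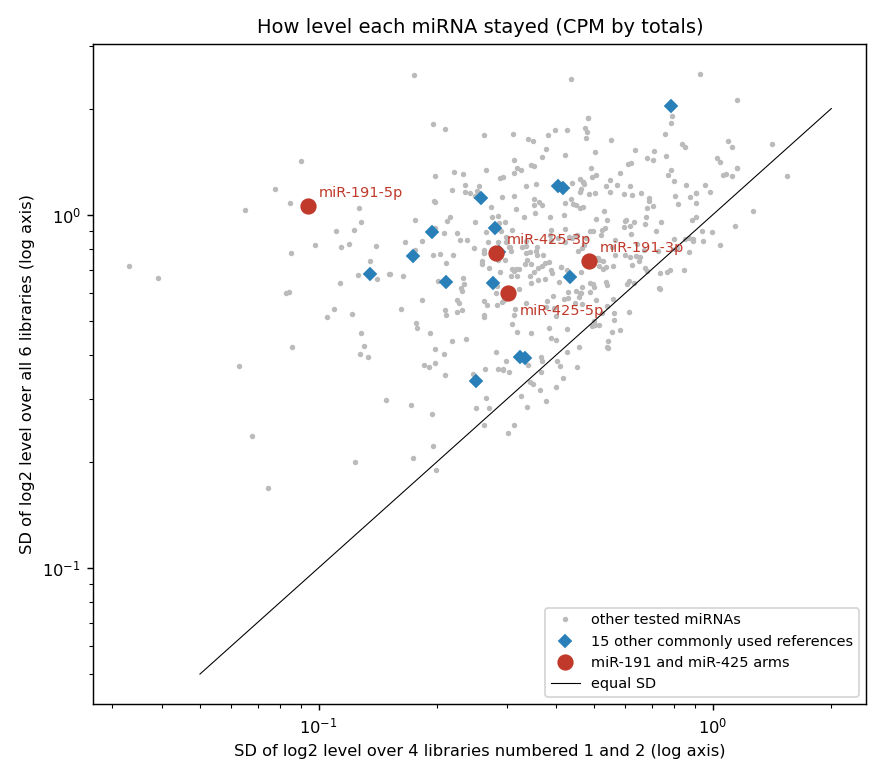
SD of the log2 level over all 6 libraries (vertical, log axis) against the SD over the 4 libraries numbered 1 and 2 (horizontal, log axis) for the 456 tested miRNAs, with the 4 arms of the cluster and 15 other reference miRNAs marked. miR-191-5p lies far left at 0.09 yet high at 1.06, while miR-425-5p lies at 0.30 and 0.60.

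Set against 15 other miRNAs that are commonly used as references, the 5p arms were neither the steadiest nor the least steady over 6 libraries. By totals miR-423-3p had the lowest SD in that list, 0.34, followed by miR-423-5p with 0.39 and miR-103-3p, a miRNA known for its part in insulin sensitivity, with 0.40. miR-361-5p, miR-186-5p, miR-152-3p, miR-484, miR-93-5p, let-7a-5p, miR-16-5p and miR-25-3p ran from 0.64 to 0.92. miR-26a-5p, miR-24-3p and miR-30e-5p stood above miR-191-5p, at 1.12, 1.19 and 1.20. miR-451a, an erythroid miRNA used as a reference in blood, had the highest at 2.04. After TMM miR-423-3p (0.24) and miR-451a (1.90) kept these ends, while miR-423-5p stood at 0.63 and miR-186-5p and miR-361-5p at 0.39 each. In the libraries numbered 1 and 2 none of the 15 had an SD as low as the 0.09 of miR-191-5p, the nearest being miR-484 at 0.14 and miR-93-5p at 0.17. None of the 15 was called between CIH and control, over 6 libraries or over those numbered 1 and 2, with medians of 0.08 and -0.10 against 0.04 and -0.03 over all miRNAs tested (edgeR); at an unadjusted p under 0.05 there were 0 and 4. The interaction, with its single pair numbered 3, was called after TMM for 5 of the 15, beside 30.3% of all miRNAs tested.

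Among miRNAs with a mean of at least 1000 CPM, the 5 lowest SDs over 6 libraries were those of miR-532-5p (0.17), miR-99b-5p (0.20), miR-27b-3p (0.35), miR-100-5p (0.37) and miR-30d-5p (0.39). These were picked by that value from the same libraries. TMM scaling changed it to 0.42, 0.44, 0.21, 0.31 and 0.38, so the order of candidates depends on the scaling as well as on the libraries.

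A measure that needs no scaling is the SD of the log2 ratio of one candidate to another, averaged over the 16 others in the group of 17 made of miR-191-5p, miR-425-5p and the 15. Over the libraries numbered 1 and 2, miR-191-5p had the lowest mean SD of the 17, 0.30, and miR-425-5p ranked 12th with 0.43. Over all 6 libraries miR-425-5p ranked 6th with 0.79 and miR-191-5p 7th with 0.80, in a range from 0.70 for miR-186-5p to 1.89 for miR-451a. Both values lie close together and near the middle. Leaving miR-451a out put them 6th and 8th over 6 libraries, and 12th and 1st over the libraries numbered 1 and 2.

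**Figure D5:**
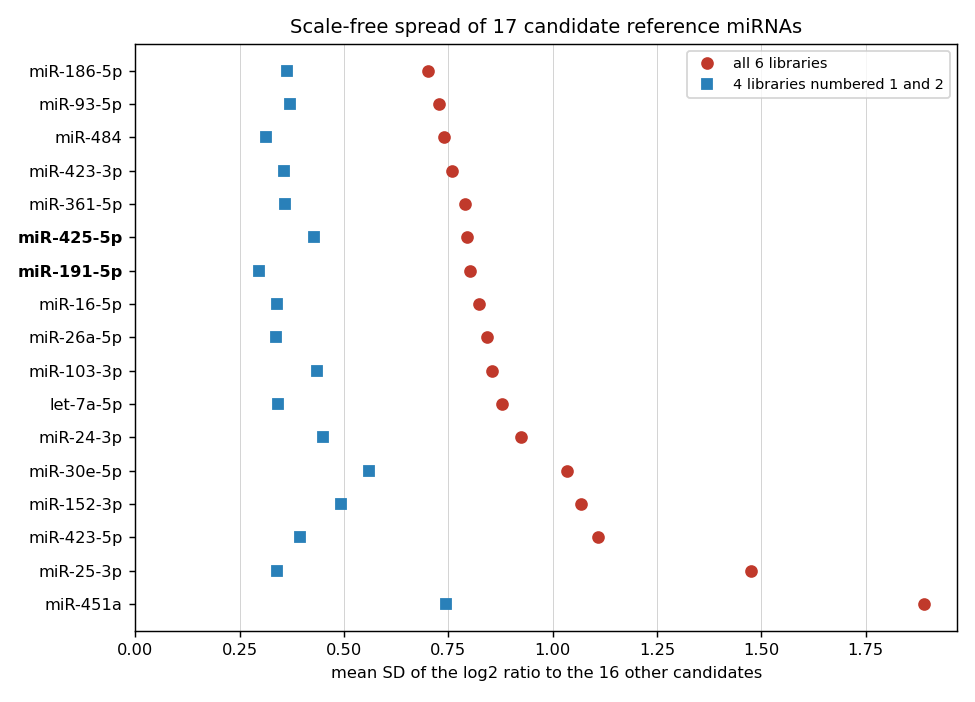
Mean SD of the log2 ratio to the 16 other candidates (horizontal axis, no scaling involved) for 17 candidate reference miRNAs, over all 6 libraries (circles) and over the 4 numbered 1 and 2 (squares), ordered by the circles. miR-191-5p has the lowest square at 0.30 and the 7th lowest circle at 0.80.

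Using the 5p arms as the scale shows what the choice of reference does to the other miRNAs. In the libraries numbered 1 and 2 the median log2 difference of the 455 other miRNAs was -0.09 when scaled to miR-191-5p, -0.55 when scaled to miR-425-5p and -0.32 when scaled to both, against -0.03 under TMM. Scaling to miR-425-5p, whose own difference was 0.48, thus moved the profile of the others down in CIH. The number called was 5 (1.1%) with miR-191-5p, 0 higher and 5 lower, 33 (7.25%) with miR-425-5p, 0 higher and 33 lower, and 54 (11.9%) with both, 9 higher and 45 lower (edgeR, adjusted p under 0.05). At an unadjusted p under 0.05 the counts were 80, 99 and 108, closer to the 99 under TMM. Of the 54, 33 were among the 43 called under TMM. With the library number as a block the counts were 46 with miR-191-5p, 19 with miR-425-5p and 55 with both. The fits also differed in their prior degrees of freedom, the weight edgeR gives to the spread shared by all miRNAs. These were 3.99 with miR-191-5p, 24.1 with miR-191-5p and the block, and 28.5 under TMM, and infinite with miR-425-5p or both. How far the counts follow that weight was not tested. Scaled to miR-191-5p the count was 31 without CIH library 2 and 0 without either control library. Scaled to miR-425-5p it was 0 without either CIH library, 19 without control library 1 and 106 without control library 2, and scaled to both it was 29 without CIH library 1 and 17 without control library 1. Over all 6 libraries each of the 3 scalings called 0 of 452 (0%, edgeR), with 16, 15 and 22 at an unadjusted p under 0.05, and the medians were -0.41, 0.07 and -0.09.

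Some miRNAs outside the cluster shared the profile of miR-191-5p over the 6 libraries more closely than its cluster partner did. They were picked as the highest of 254, so their lead over a single fixed partner is no test. Among 254 miRNAs with a mean of at least 10 CPM, the most alike were miR-26a-5p, miR-194-5p and miR-501-3p, each with a Pearson r of 0.99 over 6 libraries on the log2 scale, where the median over the 254 was 0.55. miR-26a-5p stood at 24514, 19985 and 12458 CPM in CIH libraries 1, 2 and 3 and 30917, 24072 and 3758 CPM in control, with the same low value in control library 3. The r of miR-191-5p with miR-425-5p was 0.78, and with its own 3p arm 0.87. Most alike to miR-425-5p were miR-193a-5p (0.95), miR-467c-5p and miR-217-5p (0.93 each), all below 80 CPM in every library, and its own 3p arm gave 0.84. These values describe 6 libraries that share totals and the gap to the pair numbered 3. After TMM scaling the 3 most alike to miR-191-5p had 0.95 to 0.99 and its r with miR-425-5p was 0.47. With miR-425-5p, the r after TMM was 0.80 for miR-193a-5p, 0.86 for miR-467c-5p, 0.87 for miR-217-5p and 0.68 for miR-425-3p.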

How the data were processed

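Small RNA was sequenced from 3 CIH and 3 control libraries of mouse adipocytes on an Illumina HiSeq instrument, per the labels' protocols. Each deposited file gives one column of read counts by mature miRNA, with no normalization by the authors; 3 of the 6 file headers name FPKM, but the values are whole numbers with differing totals and were taken as counts. GRCm38, featureCounts 1.5.0-p3 and DESeq 1.8.3 are listed, without their roles, per the submitters' processing notes. How reads were trimmed and aligned, and how those with several matches were counted, is not given in the sources used here. There were 0 columns of other samples.

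CPM are counts over the file total. The 929 known names in all files (99.97% or more of each library) entered edgeR 4.0.16 in R 4.3.3 (quasi-likelihood F test, robust, TMM, filterByExpr defaults, Benjamini-Hochberg over all miRNAs tested, threshold 0.05), with group as the term, over 6 libraries, over those numbered 1 and 2, and with an interaction of group and set. The filter passed all 4 members in every fit. DESeq2 1.42.0 and limma-voom 3.58.1 were alternatives. The edgeR fits were tested on simulated counts, and the permutation test on fixed values with a known answer. DESeq2 and limma-voom were not tested in this way. SDs use log2(CPM + 0.5). Ratios were compared by exact permutation with scipy 1.17.1, pandas 2.3.3, numpy 2.4.6 and Python 3.11.15, and plots made with matplotlib 3.10.9. Positions are from the RefSeq gene table of GRCm38.p6. No molecular identifiers are mentioned, so intervals and floors cover counting error only.

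Libraries of the same number deviated together from their group means (r = 0.29, 0.33 and 0.38 over 471 miRNAs). Crossing the numbers gave 0.17 for CIH library 1 with control library 2 and 0.39 for CIH library 2 with control library 1. The libraries numbered 3 stand far from the others, so those numbered 1 and 2 deviate together whatever their pairing. The check therefore cannot decide whether 1 pairs with 1 and 2 with 2. The blocked fits and the values by pair follow the library number alone. Libraries of a group differed beyond counting noise (chi-square at least 135 times its degrees of freedom) and each counted as 1 replicate.

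The members, the lists and the fit of the libraries numbered 1 and 2 were chosen with earlier results of these data known. Named miRNAs are the members, 15 commonly used references, the 3 most alike to each 5p arm at a mean of 10 CPM or more, and the 5 with the lowest SD at 1000 CPM or more. The scale-free SD, the totals without miR-148a-3p and the interaction scaled to other references were added after the data were examined.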

Additional observations from a re-analysis of the deposited data

Results flagged for a closer look

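After TMM scaling the CIH minus control difference of miR-425-5p in the pair numbered 3, less that in the libraries numbered 1 and 2, was -1.32 on the log2 scale (adjusted p = 0.00846, edgeR). By totals it was -0.39 (adjusted p = 0.514). The same test after TMM was passed by miR-16-5p at 1.74, let-7a-5p at 1.68, miR-152-3p at 1.41, miR-26a-5p at 1.08 and miR-423-5p at -1.38, all in the list of references. It was passed by 30.3% of all miRNAs. The pair numbered 3 has 1 library a group, and its libraries are assumed to vary like those numbered 1 and 2.

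By their estimates all 3 ratios moved one way in pairs 1 and 2 and the other way in pair 3, a difference that was not tested. For the arms of miR-191 the counting intervals of CIH and control overlapped in every pair. For miR-191-5p over miR-425-5p they overlapped in pair 2 (5.49 to 5.83 against 5.70 to 6.06). In pair 3 the CIH minus control difference of the log2 ratio was 0.26 for the arms of miR-191, -0.62 for the arms of miR-425 and 1.69 for miR-191-5p over miR-425-5p. By library totals miR-191-5p and miR-425-3p did the same, with 1.66 and 0.59 on the log2 scale in pair 3 and lower values in CIH in pairs 1 and 2. For these levels, too, the opposite course by pair was not tested, except that the interaction of miR-191-5p by totals was 1.74 (adjusted p = 0.00336) and that of miR-425-3p 0.97 (adjusted p = 0.220, edgeR).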

How the results depend on the processing

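Beyond leaving out a library, 106 of 119 values kept both their direction and their side of the threshold, or stayed within 1.5 times for counts and SDs. Not all of them could change. For the 3 ratios the block leaves the mean difference as it is, and the exact test cannot reach the threshold. Over 6 libraries miR-425-5p turned to -0.00195 with the 15 other references as the scale, and in the libraries numbered 1 and 2 miR-191-5p turned to -0.082 by totals. The interaction by totals was 1.74 for miR-191-5p, now past the threshold, and -0.39 for miR-425-5p, no longer past it; with the other references as the scale it was -0.070 for miR-191-3p and -0.036 for miR-425-3p. In the libraries numbered 1 and 2 alone the difference of miR-191-5p over miR-425-5p was -0.44. SDs over 6 libraries without miR-148a-3p in the totals were 0.68 for miR-191-5p, 0.37 for miR-425-5p and 0.47 for miR-425-3p, and with 5 CPM added 0.38 for miR-191-3p. The replicate block (0.33 for miR-191-5p and 0.06 for miR-425-5p over 6 libraries) changed no call of the 4 members; scaled to miR-191-5p or miR-425-5p it gave 46 and 19 calls among the other miRNAs of the libraries numbered 1 and 2. The causes were not tested.

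Leaving out each library gave, over 6 libraries, -0.18 to 0.48 for miR-191-5p (-0.00833 without CIH library 2), 0.39 to 1.03 for miR-191-3p, 0.000638 to 0.50 for miR-425-5p and -0.50 to 0.039 for miR-425-3p (0.038 without control library 2 too). In the libraries numbered 1 and 2 it gave 0.02 to 0.13, 0.28 to 1.04, 0.23 to 0.83 and -0.38 to -0.05, with 9 to 97 miRNAs called; scaled to miR-191-5p, miR-425-5p or both, 0 to 31, 0 to 106 and 17 to 65 others were called. A group left with 1 library is assumed to vary like the other. The log2 ratio differences ran from -0.64 to 0.091 for the arms of miR-191, 0.05 to 0.64 for those of miR-425 and -0.32 to 0.70 for miR-191-5p over miR-425-5p. The SDs ran from 0.43 to 1.17, 0.46 to 0.83, 0.54 to 0.67 and 0.56 to 0.87, the lowest of both miR-191 arms being without control library 3.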
